A study of Plecoglossus altivelis with 2 samples.

Results

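In ayu (Plecoglossus altivelis) larvae, 47 components of an assembled transcriptome held at least 1000 counts and stood 4-fold or more higher in brackish water than in fresh water. A component is a group of assembled transcripts that share an identifier apart from the last number, and it stands in for a gene here. The 47 were found among 70911 components in all. For each component the estimated counts of its transcripts were summed, each library was scaled to the mean of both library totals, and a component was kept when its scaled counts came to 1000 or more over both libraries and (brackish + 0.5)/(fresh + 0.5) was 4 or more. Of the 13095 components with 1000 or more scaled counts, these 47 made up 0.359%, and 50 (0.382%) were 4-fold or more higher in fresh water. The members were thus chosen by their counts and by the ratio of the 2 libraries, so that their folds below are a description and were not tested.

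Ayu is an amphidromous fish that hatches in rivers, grows as a larva in the sea or estuary and returns to fresh water. A fish in fresh water gains water and loses salt, and a fish in sea water loses water and gains salt, so that moving between them changes what the gill, kidney and intestine transport. Brackish water near the salt concentration of the blood lies between these states. The files hold assembly identifiers and do not pair them with gene names, so no member can be assigned a protein or a pathway, no list of osmoregulatory genes could be examined, and the tissue labels could not be checked against marker genes.

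The brackish water group was held for 4 weeks in water with 0.17 M NaCl, a salinity of 10 ppt, and the fresh water group was held for the same time in fresh water. Both were larvae kept at 20 to 22 °C and fed pellets, in groups of 20 fish with 4 tanks per group. Each library was made from a mixture of 9 tissues (brain, heart, muscle, skin, gill, intestine, liver, spleen and kidney), and how many fish or tanks entered a mixture is not stated in the labels. No strain, sex or genetic change is named in the labels. There was 1 library per salinity, with 72013090 estimated counts in brackish water, against 72522809 in fresh water, so no difference below has a replicate check. A higher level in a mixture can come from more RNA per cell, from more cells of a type or from more of a tissue in the mixture, and these cannot be told apart here. Intervals given with folds are exact 95% binomial intervals and cover counting error only. PCR reads without molecular identifiers are not independent molecules, which these intervals leave out.

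The members together took 5.60% of all counts in brackish water, against 0.970% in fresh water, or 4032372 and 703403 counts. A single member supplied 81.5% of the members' counts in brackish water, against 88.8% in fresh water. Without it, the remaining 46 members took 1.03% of the counts in brackish water, against 0.108% in fresh water, and their summed scaled level was 9.56-fold higher in brackish water. The median fold of the 47 was 9.19, a log2 fold of 3.20, against a median log2 fold of 0.00 over all 13095 components. Between 4-fold and 5-fold there were 6 members, between 5-fold and 8-fold 12, between 8-fold and 16-fold 13, and 16 were 16-fold or more higher (0.122% of the 13095).

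**Figure D1:**
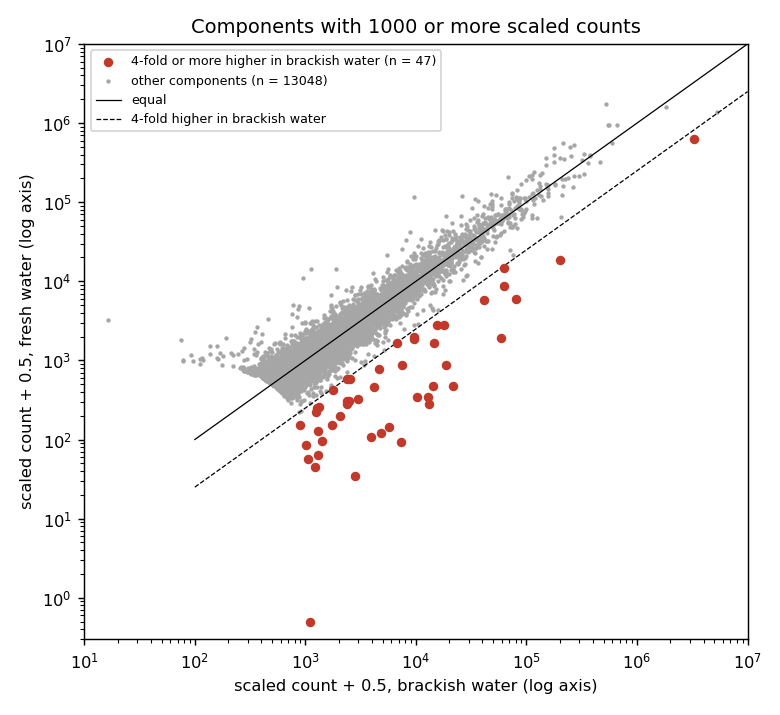
Scaled counts plus 0.5 of each component with 1000 or more scaled counts, with brackish water on the x axis and fresh water on the y axis, both log axes. The 47 members (red) lie below the dashed 4-fold line over the whole range of abundance, and the lowest red point is the member with 0 counts in fresh water.

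The thresholds cut through a continuous range of values. The member nearest to the fold limit, of 840 bases, had 2382 counts in brackish water, against 590 in fresh water, a fold of 4.06. Just outside it, a component of 11 transcripts with a longest transcript of 1470 bases had 916 counts in brackish water, against 232 in fresh water, a fold of 3.97. At the limit on abundance, the member with the fewest scaled counts had 1036 over both libraries and was 5.87-fold higher. Among components that met the fold limit, the nearest one below that minimum, of 1057 bases, had 964 counts in brackish water, against 0 in fresh water. The counting interval lay wholly at or above 4-fold for 43 members and reached below it for the other 4.

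Levels between members are compared in TPM, which is scaled by transcript length (in these files the length less 61.5 bases), and a member's TPM is the sum over its transcripts. In brackish water the members ran between 3.43 and 19265 TPM with a median of 121.6, and in fresh water between 0 and 3447 TPM with a median of 9.18. All components with 1000 or more scaled counts had medians of 15.9 TPM in brackish water, against 15.2 TPM in fresh water. The components 4-fold or more higher in fresh water had medians of 5.43 TPM in brackish water, against 42.0 TPM in fresh water. The rule requires a higher count in brackish water, so the differences between libraries in the counts of members below follow from it. Of the members, 24 had at least 100 TPM in brackish water and 5 had that level in fresh water. Conversely, 2 members were under 10 TPM in brackish water and 26 were under 10 TPM in fresh water. The minimum on counts therefore admitted some members of low level: the one of 5235 bases had 3.43 TPM in brackish water, against 0.28 TPM in fresh water, and ranked 22898 of 70911 components in brackish water. Among the 100 components with the highest TPM were 3 members in brackish water, against 1 in fresh water, and among the highest 1000 were 24 in brackish water, against 5 in fresh water.

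**Figure D2:**
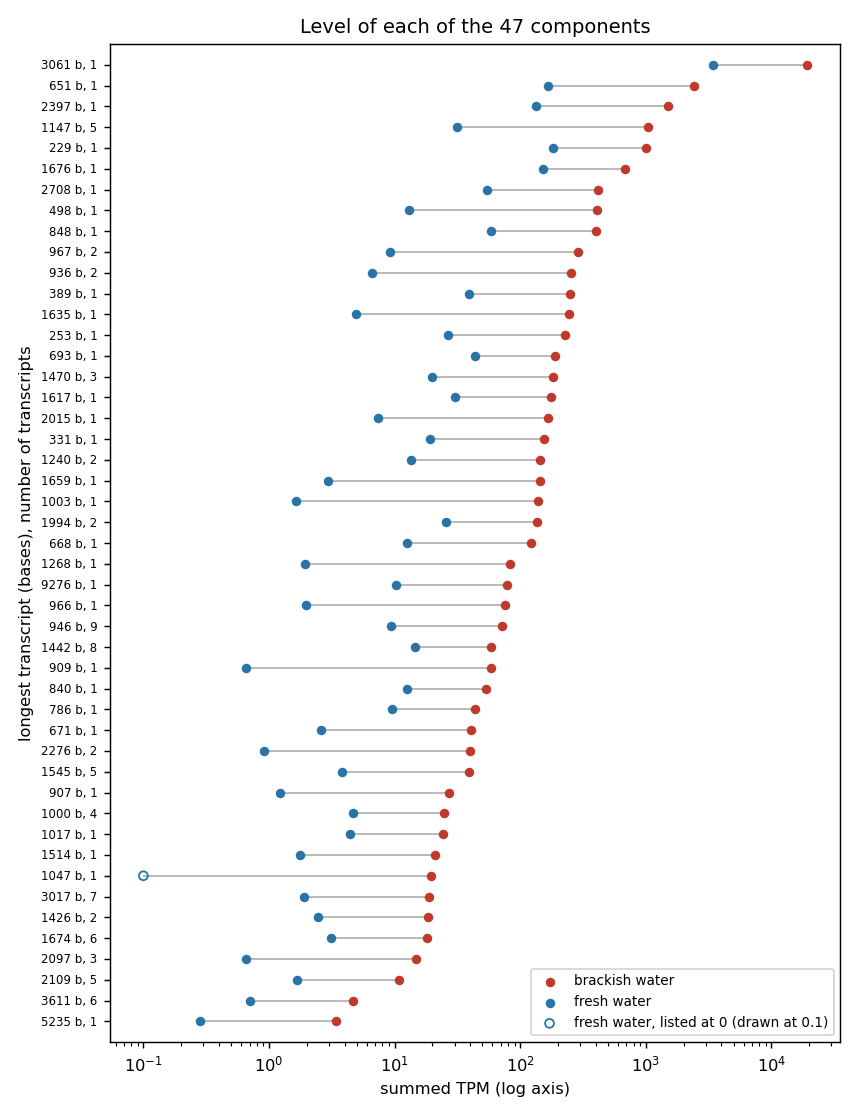
Summed TPM (log axis) of each of the 47 members in brackish water (red) and fresh water (blue), ordered by the brackish water level, with the longest transcript in bases (b) and the number of transcripts on the y axis. The brackish water levels run between 3.43 and 19265 TPM, and members with nearly equal levels in brackish water differ widely in fresh water.

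Of the 5 members with at least 1000 TPM in brackish water, the highest by far was comp113125_c1, a single transcript of 3061 bases. It had 3287223 counts and 19265 TPM in brackish water, against 624885 counts and 3447 TPM in fresh water, and was 5.30-fold higher (interval 5.28 to 5.31). It took 4.56% of all counts in brackish water, against 0.862% in fresh water. By TPM it was the component ranked 2 in brackish water, against 21 in fresh water. It was therefore among the most abundant RNAs of the mixture at both salinities.

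The next 4 by level ran between 1002 and 2404 TPM in brackish water, against 31.2 to 182 TPM in fresh water. A member of 651 bases had 2404 TPM in brackish water, against 167 TPM in fresh water, and one of 2397 bases had 1512 TPM in brackish water, against 132 TPM in fresh water. Their folds were 13.6 (interval 13.3 to 14.0) and 10.8 (interval 10.7 to 11.0). A member of 5 transcripts, the longest of 1147 bases, had 1033 TPM in brackish water, against 31.2 TPM in fresh water. The shortest member of all, of 229 bases, had nearly the same level in brackish water, 1002 TPM, but 182 TPM in fresh water. The last 2 members thus had nearly equal levels in brackish water and stood 30.6-fold (interval 29.3 to 32.1) and 5.21-fold (interval 4.96 to 5.48) above fresh water.

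The 16 members that were 16-fold or more higher ran over a wide range of levels in both libraries. Their median was 109.9 TPM (range 10.8 to 1033) in brackish water and 1.97 TPM (range 0 to 31.2) in fresh water. The medians over all 13095 components were 15.9 and 15.2 TPM. A limit of 16-fold itself favours low levels in fresh water. Of the 16, 10 held a single transcript, and their longest transcripts were 498 to 2276 bases long. The largest fold was that of comp50017_c0, a single transcript of 1047 bases with 1092 counts and 19.5 TPM in brackish water, against 0 counts in fresh water. Against the limit of 3 counts that a count of 0 allows in the fresh water library, its fold would be 367. That value is a bound and not an estimate, as a count of 0 gives no finite fold. The lower end of its counting interval was 298-fold. It was the only member at 0 in fresh water.

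Below it, a member of 909 bases had 2811 counts in brackish water, against 34 in fresh water, an 82.1-fold difference with an interval of 59.4 to 120.5. A member of 1003 bases had 7362 counts in brackish water, against 94 in fresh water, which is 78.5-fold (interval 64.4 to 97.7). The wide intervals of both overlap, so that their order is not set by these counts. Members of 1635 and 1659 bases had very similar folds, 46.6 (interval 42.6 to 51.2) and 45.9 (interval 40.9 to 51.9), although their levels in brackish water were 243 and 143 TPM. The member of 498 bases, the shortest of the 16, had 409 TPM in brackish water, against 12.9 TPM in fresh water, and was 30.0-fold higher (interval 26.9 to 33.5).

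The 13 members between 8-fold and 16-fold had a median of 71.5 TPM (range 3.43 to 2404) in brackish water and 9.42 TPM (range 0.28 to 167) in fresh water. Besides the members of 651 and 2397 bases, this range held one of 253 bases with 228 TPM in brackish water, against 26.7 TPM in fresh water, 8.09-fold higher (interval 7.20 to 9.15). A member of 668 bases had 122 TPM in brackish water, against 12.6 TPM in fresh water, 9.15-fold higher (interval 8.32 to 10.1).

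The 18 members between 4-fold and 8-fold had counts at both salinities, with medians of 145.5 TPM in brackish water, against 22.4 TPM in fresh water. The longest member of all, of 9276 bases, had 40836 counts and 77.9 TPM in brackish water and 5745 counts and 10.3 TPM in fresh water. It was 7.16-fold higher (interval 6.96 to 7.36), a value within the interval of the 2708-base member at 7.18-fold (interval 7.02 to 7.35), which had 412 TPM in brackish water, against 54.4 TPM in fresh water. A member of 1676 bases had 685 TPM in brackish water, against 151 TPM in fresh water, the fold being 4.30 (interval 4.22 to 4.38). Across the 47 members, the fold had a Spearman correlation of 0.03 with length and of -0.05 with the TPM in brackish water. Both describe features of the same 2 libraries. The brackish water count enters the fold, and the rule cut the members by fold and by summed count. Whether fold depends on level or length can therefore not be read from these values.

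Length and number of transcripts did not enter the rule directly, although a minimum on counts favours long transcripts. The longest transcript of a member had a median length of 1240 bases, with quartiles of 878 and 1835 bases, against 2045 bases with quartiles of 1320 and 3017 bases over all components with 1000 or more scaled counts. Of the members, 18 (38.3%) had no transcript of 1000 bases or more, against 13.9% of all 13095, and 5 (10.6%) exceeded 3000 bases, against 25.3%. By these values the typical member was shorter than the typical component of the 13095. The same was seen in the 50 components that were 4-fold or more higher in fresh water, whose median was 1243 bases and of which 19 (38.0%) had no transcript of 1000 bases or more. Few components of either set were long. In the fresh water set 1 (2.0%) exceeded 3000 bases, and the longest had 3804 bases, against 9276 bases in members. Of the 5 members above 3000 bases, the shortest had 3017 and 3061 bases. The upper quartile went the other way, 1947 bases in the fresh water set, against 1835 bases in members. No difference between the sets is therefore read from the long components.

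Most members held 1 transcript. A single transcript made up 30 of the 47 members (63.8%), against 35.5% of all 13095 and 60.0% of the components higher in fresh water. Another 6 members held 2 transcripts, and 8 (17.0%) held 5 or more, against 31.2% of all 13095 and 8.0% of the components higher in fresh water. The member with the most transcripts had 9, whereas components with 1000 or more scaled counts reached 150. Single-transcript components are shorter in general, with a median of 1341 bases over all 13095, but single-transcript members were shorter again with a median of 984.5 bases. Among components of several transcripts the medians were 1470 bases in members and 2478 bases in all. The components higher in fresh water were also shorter in both classes, with medians of 1062 bases for a single transcript and 1656.5 bases for several.

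**Figure D3:**
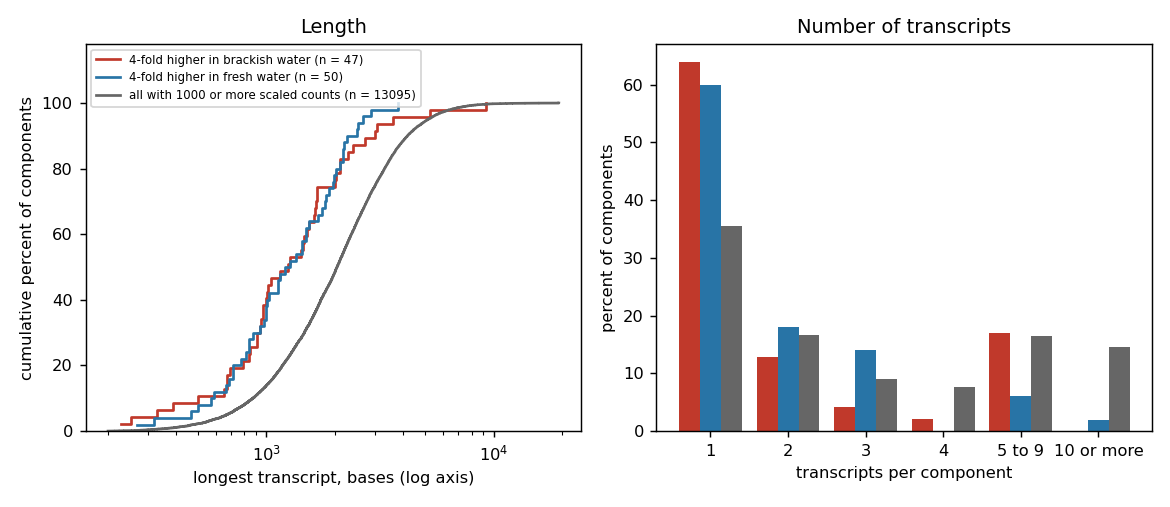
Left, cumulative percent of components by the length of the longest transcript (bases, log axis). Right, percent of components by number of transcripts. The 47 members (red) and the 50 components 4-fold or more higher in fresh water (blue) have nearly equal median lengths of 1240 and 1243 bases. Both medians lie to the left of that of all 13095 components (grey, median 2045 bases).

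In members of a single transcript, counts and TPM gave the same fold up to a constant. The TPM fold was 1.04 to 1.06 times the count fold for all 29 such members with a value above 0 in fresh water, and this constant was 1.05 in single-transcript components in general. In members of several transcripts the ratio ran between 0.352 and 1.26, as transcripts of unequal length could carry the counts in the 2 libraries. The lowest ratio was that of a member of 5 transcripts, the longest of 2109 bases. It had 1047 counts in brackish water, against 57 in fresh water, 18.3-fold. Its levels were 10.8 TPM in brackish water, against 1.66 TPM in fresh water, 6.51-fold. By TPM, all 46 members listed above 0 in fresh water stayed at or above 4-fold, with a lowest fold of 4.07.

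Within the 17 members of several transcripts, the transcripts pointed mostly the same way. These members held 50 transcripts with 50 or more scaled counts in the library where they were higher. Of the 50, 49 were higher in brackish water, 46 by 2-fold or more and 43 by 4-fold or more, where 50.9%, 23.3% and 14.3% of such transcripts met these limits over all components with at least 2 of them. In 16 of the 17 members every such transcript was higher in brackish water (9.16% of 7883 components), and in 14 every one was at least 2-fold higher (0.343%). Since a component with a 4-fold higher total must hold transcripts that are higher, the high counts follow in part from the rule and nothing is read from them.

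In some members the transcripts differed little in fold. In a member of 2 transcripts, of 909 and 967 bases, the first had 8551 counts in brackish water, against 280 in fresh water, 30.7-fold, and the second 5742 in brackish water, against 203 in fresh water, 28.4-fold. The shorter transcript took 59.8% of the counts in brackish water, against 58.0% in fresh water. In another member of 2 transcripts, of 895 and 1994 bases, the folds were 5.31 and 4.62. The folds were further apart in the member of 5 transcripts with 1033 TPM in brackish water, where 4 transcripts were 21.7-fold to 44.2-fold higher. The fifth, of 860 bases, had 675 counts in brackish water, against 0 in fresh water.

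The exception was a member of 8 transcripts, the longest of 1442 bases, whose total was 4.35-fold higher. Its transcript of 813 bases had 0 counts in brackish water, against 244 counts in fresh water, 41.7% of the component there. Its longest transcript had 1373 counts in brackish water, against 184 in fresh water, 7.49-fold. The lower counting bound of its total was 3.98-fold. At a minimum of 10 scaled counts, every such transcript was higher in brackish water in 14 of 17 members. In the 26.9-fold member of 2097 bases, a transcript of 1197 bases had 24 counts in brackish water, against 45 in fresh water. It held 100% of that member's fresh water counts. In the 18.3-fold member of 2109 bases, transcripts of 403 and 786 bases had 14 and 21 counts in brackish water, against 20 and 22 in fresh water.

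Shares of transcripts moved in several members with few counts in fresh water. In each library 16 members of several transcripts reached 50 counts. In 4 of these members (25%) the share of 1 transcript moved by 50 percentage points or more, against 2.94% of 8439 components. Among the components higher in fresh water it moved that far in 2 of 20 (10%). The 8439 were not matched to the members for low counts in 1 library, so the higher share in members is not read as a trait of theirs. All 4 had fewer than 200 counts in fresh water, and among the 11 members with at least 200 counts in each library none moved that far. In a member of 2 transcripts, of 2191 and 2276 bases, the shorter took 90.3% of 4849 counts in brackish water, against 33.3% of 120 counts in fresh water. In a member of 9 transcripts, one of 390 bases took 17.1% of 2040 counts in brackish water, against 70.3% of 197 counts in fresh water. In 8 of the 17 members of several transcripts, 13 of the 50 transcripts had at least 50 scaled counts in brackish water, against 0 in fresh water. Over all components with at least 2 transcripts of 50 scaled counts, 2984 of 38360 transcripts were of this kind, in 1830 of 7883 components. In such components of the set higher in fresh water, 0 of 58 transcripts were. The rule picks members with low counts in fresh water, so these counts follow in part from it and nothing is read from them. How surely reads were assigned to one transcript rather than another is not recorded in the files.

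**Figure D4:**
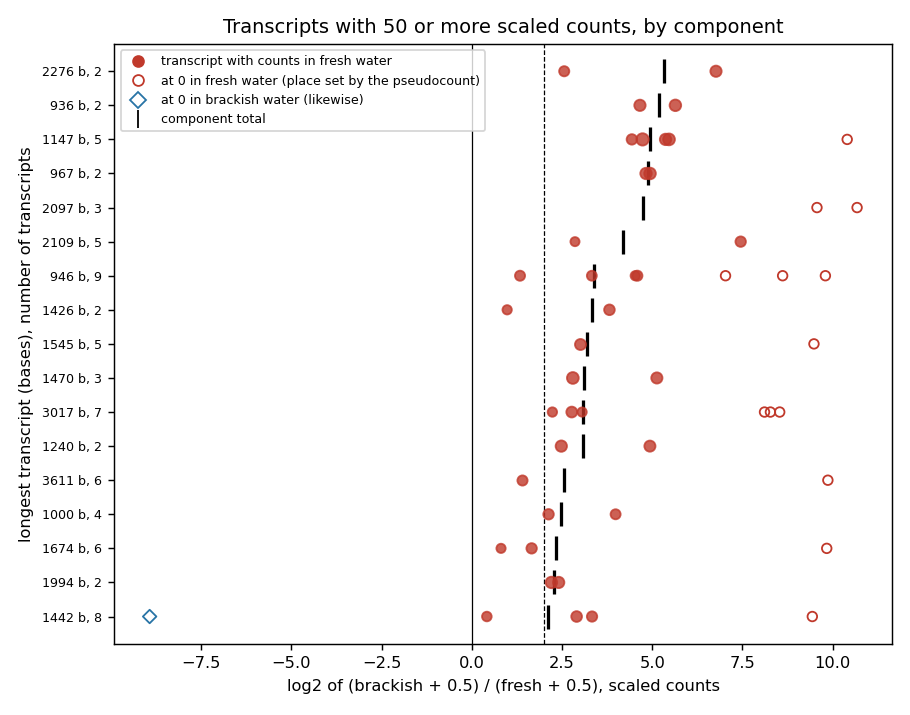
Log2 ratio of scaled counts (brackish over fresh, pseudocount 0.5) of each transcript with 50 or more scaled counts in the 17 members of several transcripts, labelled by longest transcript in bases (b) and number of transcripts. Of the 50 transcripts, 49 lie right of 0, and the open diamond is the transcript of 813 bases at 0 in brackish water.

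Components that share the leading number of their identifier are taken here, from the identifiers alone, as a group of the assembly. No pair of members shared a leading number. Of the 47, 34 (72.3%) were alone under theirs, against 38 of the 50 components higher in fresh water (76%) and 35.4% of all 13095. The other 13 members had other components beside them, 49 in all. With 50 or more scaled counts in the library where they were higher there were 39 others, beside 12 members. Of these 39, 17 (43.6%) were 2-fold or more higher in brackish water and 8 (20.5%) 4-fold or more, against 8.22% and 2.30% of 35291 components with that minimum. None of the 39 was 2-fold or more higher in fresh water, and the share over all components was not computed for this. Below that minimum the others lay on both sides. One of 244 bases had 4 counts in brackish water, against 47 in fresh water, and one of 405 bases had 34 in brackish water, against 0 in fresh water.

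The groups differed in how far the others followed the member. Beside 6 members, every other component with the minimum was at least 2-fold higher in brackish water. The member of 4 transcripts with a longest transcript of 1000 bases was 5.54-fold higher, and 3 others in its group were 3.74-fold to 4.46-fold higher. The member of 9276 bases had 1 other beside it, of 804 bases, with 138 counts in brackish water, against 22 in fresh water, 6.20-fold higher. In the group of the member of 7 transcripts and 3017 bases, 8.53-fold higher, 2 others had 175 and 215 counts in brackish water against 5 and 7 in fresh water.

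In 2 groups the member stood by itself. The member of 2 transcripts of 936 bases was 36.7-fold higher (interval 33.1 to 41.0), whereas 3 others in its group had folds of 0.936 to 1.41. The member of 5 transcripts with 58773 counts in brackish water, against 1933 in fresh water, was 30.6-fold higher. Beside it, one component had 19898 counts in brackish water, against 20619 in fresh water, and another had 31207 in brackish water, against 25172 in fresh water, folds of 0.972 and 1.25. The remaining 4 groups were mixed. Beside comp113125_c1, the most abundant member, 7 others were 1.14-fold to 3.85-fold higher. The one at 3.85-fold, of 4632 bases, was more abundant than the member and stayed outside the fold limit. It had 5314373 counts and 20440 TPM in brackish water, against 1390675 counts and 5035 TPM in fresh water. The members of 2097 and 1514 bases, 26.9-fold and 11.3-fold higher, had 6 others with folds of 0.679 to 3.67 and 7 others with folds of 0.609 to 4.00, and in each of these groups 1 of the others was at least 2-fold higher. Beside the member of 3611 bases, 3 others had folds of 1.05 to 10.3. Components of 1 group may share reads, so the others are no independent check on a member.

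**Figure D5:**
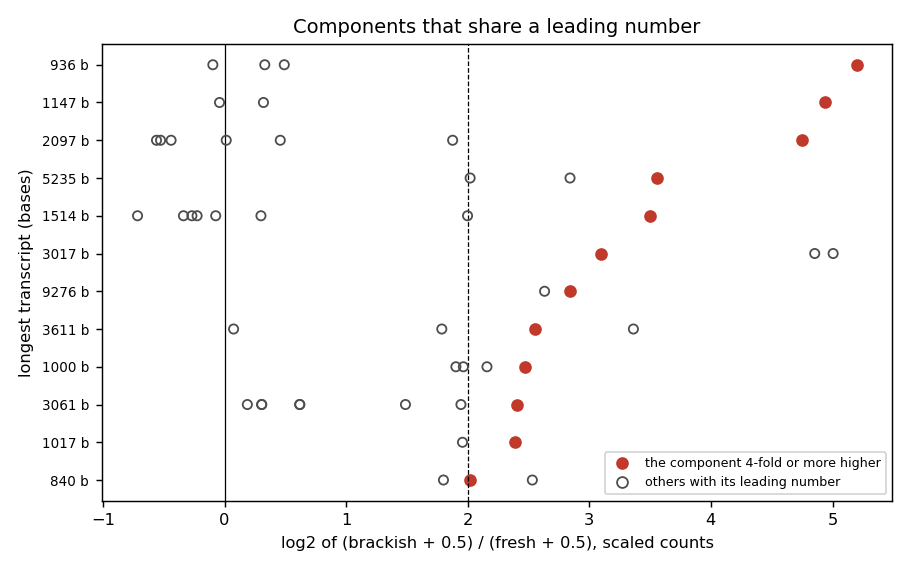
Log2 ratio of scaled counts (brackish over fresh, pseudocount 0.5) of 12 members (red) and of the 39 other components with the same leading number and 50 or more scaled counts in the library where they were higher (open circles), 1 row per group, labelled by the member's longest transcript in bases (b). In the rows of 936 and 1147 bases the others lie near 0, and in the rows of 840, 1000, 1017, 3017, 5235 and 9276 bases every one of the others is at least 2-fold higher.

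A summed count that is not whole shows that part of at least 1 read was not assigned to that component. Within 0.01 per transcript, 10 members (21.3%) had a whole sum in brackish water, and 33 (70.2%) had one in fresh water. Over all 13095 components these shares were 36.8% and 48.5%. Of the 30 single-transcript members, 4 (13.3%) had a whole count in brackish water, whereas 20 (66.7%) had one in fresh water. Over all single-transcript components of the 13095, these shares were 28.3% and 39.6%. The components higher in fresh water had the opposite order, with a whole sum for 32 of 50 (64%) in brackish water, against 24 of 50 (48.0%) in fresh water. In both sets the library with the lower counts thus had more whole sums. At that tolerance, 37 members had a fractional sum in brackish water and 14 had one in fresh water, and how reads were divided for them is not recorded in the files.

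In the authors' deposited table, which covers 96 of the members' 103 transcripts, 42 transcripts were called, all with the higher value in brackish water. The authors' deposited table calls 139 of 133434 transcripts higher in brackish water (0.104%), and 30.2% of those calls lay in members. By the authors' deposited table, at least 1 such call fell in 35 of the 47 members and in 0.878% of the 13095 components. The libraries and contrast are those of the rule, so these calls are no independent check. The 12 members without a call in the authors' deposited table had at most 2531 counts and 71.5 TPM in brackish water, with folds of 4.35 to 26.9. Members with a call reached down to 19.5 TPM in brackish water, so the levels of called and uncalled members overlap. No call fell in 9 of the 17 members of several transcripts and in 3 of the 30 single-transcript members. For comp113125_c1 the authors' deposited table gives a log2 fold, fresh over brackish, of -2.41. For comp50017_c0 the authors' deposited table gives a p-value of 8.53e-05 and an FDR of 0.0251.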

How the data were processed

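RNA sequencing values of 2 libraries of ayu larvae, 1 per salinity, were used as deposited. Per the labels' protocols, polyadenylated RNA from 9 mixed tissues was fragmented, copied with random hexamers and amplified by PCR, and no step that marks the strand is named. Per the file headers, the authors gave for each assembled transcript an estimated count, a TPM, an FPKM and the percent of its component. The authors' deposited table adds a log2 fold, a p-value and an FDR. Counts in that table and in the library files were equal (133434 of 133434 transcripts). The ratio of count to TPM fitted the length less 61.5 bases in both libraries, which raises the TPM of short transcripts over a scaling by full length. The tools behind the assembly and the estimates are not given in the sources used.

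Estimated counts were summed by component and scaled to the mean of both totals (72013090 in brackish water, 72522809 in fresh water), without rounding. Counts rounded to whole numbers were used for binomial intervals (scipy 1.17.1) and for the scaling factors of edgeR 4.0.16 and DESeq2 1.42.0 in R 4.3.3, which served as alternatives. With 1 library per group, no p-value was computed. The rule and the intervals were run on simulated counts with planted folds and counting error only. In that setting no unchanged component met the rule. Variation between fish, tanks, tissue mixtures and read assignment was left out, so the simulation does not bear on it. The members and measures were chosen with earlier results of these data known, and the split of lengths by number of transcripts was added after values were seen. Identifiers are printed for the member with the most counts in brackish water and the one with the largest fold. No gene names, genome positions or sequences were used here.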

Additional observations from a re-analysis of the deposited data

How the results depend on the processing

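With 1 library per salinity, no library could be left out. No paired analysis was possible because the labels give no shared replicate numbers. The number of members (47) was the same under TMM scaling, DESeq2 size factors and a pseudocount of 5, and the same 47 components were found. TMM scaling and DESeq2 size factors shifted log2 folds by only -0.00113 and -0.0102. The components nearest to the fold limit, at 3.97-fold and 4.06-fold, lay too far from it for such shifts to matter. The unchanged set under these scalings follows from that, so nothing is read from it. TPM ratios gave 49 and library totals without the leading-number group of comp113125_c1 gave 59, which moved log2 folds by 0.15, and both sets held all 47. Minimums of 500 and 2000 scaled counts gave 66 and 35. The number moved further without a minimum (9477), at 2-fold (232), at 8-fold (29), in single-transcript components (30) and over transcripts (244), settings that admit more or fewer features. The members' share of counts was 3.08% in brackish water and 0.459% in fresh water by TPM, and 1.03% and 0.108% without comp113125_c1. Members with a moved transcript share numbered 8 at 25 percentage points and 0 of 11 at 200 counts in each library. The count-weighted length had a median of 1053 bases, and whole sums in both libraries numbered 17 at a tolerance of 0.05 per transcript, against 10. Under the alternatives of scaling, pseudocount and TPM, the median log2 fold of the members ran between 3.18 and 3.35. Setting the member at 0 to its bound, chosen after seeing the data, left it at 3.20. The median could not move, because that member still had the largest fold, so nothing is read from this setting. Depth limits members with few counts in fresh water most.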
